A study of Mus musculus with 18 samples.

Results

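The transcripts of G1E-ER4 cells at 30 h of estradiol were set against those at 21 h, the last interval of a differentiation course. The 6 arrays were chosen by their titles, 3 for 30 h (A, B and C) and 3 for 21 h (A, B and C), out of 18 arrays in the series. G1E is an immortal mouse erythroid line grown from embryonic stem cells whose Gata-1 gene had been disrupted, and ER4 is a clone of it that carries Gata-1-ER, in which Gata-1 is joined to an estradiol binding domain. The cells at 30 h and the cells at 21 h shared this genotype, and their labels differed in the hours since estradiol was given. The labels do not give the culture or day of each array. The remaining 12 arrays covered 0, 3, 7 and 14 h. The labels call A, B and C biological replicates and place the course between a late erythroid burst-forming progenitor and the orthochromatic erythroblast. All cells came from 1 clone, and no array held cells without the fusion or untreated cells kept for as long, so the effects of Gata-1-ER, of estradiol itself and of time in culture cannot be told apart.

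In terminal erythroid maturation the precursor fills with hemoglobin, goes through its last divisions, packs its chromatin and clears its organelles before it sheds the nucleus. Genes for DNA synthesis are mostly read in S phase under E2F factors, while genes for mitosis are read later, in G2, under the MuvB complex with B-Myb and Foxm1. In mammalian mitosis promoters the MuvB complex binds the sequence TTTGAA, called the cell cycle genes homology region, and the factor NF-Y binds CCAAT.

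The arrays (Affymetrix MG-U74Av2) report a signal for each probe set, a group of short probes for 1 transcript, scaled so that each array had a trimmed mean of 150.1. Values below are this signal, in arbitrary units, and sizes are log2 changes, 30 h minus 21 h, with the standard error (SE) of limma's fit after a constant of 16 had been added, which shrinks the changes of dim probe sets. Correlations between the 6 arrays over all probe sets ran between 0.944 and 0.969. Markers of the labelled lineage were high. Alpha globin (Hba-a1) had 26647, 21954 and 31044 at 30 h, against 24517, 20105 and 25105 at 21 h, and the erythroid factor Klf1 had 2995, 2682 and 2569 at 30 h, against 3149, 3853 and 3586 at 21 h. Of the markers of 6 other cell types, each read by its brightest probe set, only Gp9 of megakaryocytes was called. Of the 16 probe sets of the lymphocyte marker Ighm, 1 was called higher. The summed signals of the markers overlapped between the times in all 6 lists. The 23 neutrophil and macrophage markers summed to 1099, 1099.6 and 1386 at 30 h, against 1105, 791 and 954 at 21 h. The ratio of the 3′ to the 5′ probe set, a measure of RNA integrity, was 0.961 to 1.27 at 30 h and 0.999 to 1.09 at 21 h for Gapdh, and 1.07 to 1.73 at 30 h and 0.968 to 1.39 at 21 h for beta actin. Its part in the results was not tested. In a bulk culture, fewer cells in cycle and less RNA per cell cannot be told apart.

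Most of what separated 30 h from 21 h was loss. Of 12422 probe sets, 619 were called (4.98%) at an adjusted p below 0.05, 232 of them higher at 30 h (1.87%) and 387 lower (3.12%). The falls were also larger, with 201 probe sets lower and 66 higher by at least 2-fold, and median changes of -1.02 among those called lower and 0.83 among those called higher. Taking the brightest probe set of each of 8251 genes, 185 genes were higher (2.24%) and 322 lower (3.9%), while the median change over all genes was 0.02. The 30 h and 21 h arrays did not overlap in 609 of the 619 called probe sets, and in 2379 of all 12422 (19.2%). Among the called probe sets, 320 of the 387 lower ones (82.7%) had 30 h signals below all 15 earlier arrays, and 172 of the 232 higher ones (74.1%) had 30 h signals above all 15. Over all 12422 probe sets, called or not, 580 had 30 h signals below all 15 and 466 above all 15. Choosing probe sets by a change from 21 h itself favours these shapes.

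**Figure D1:**
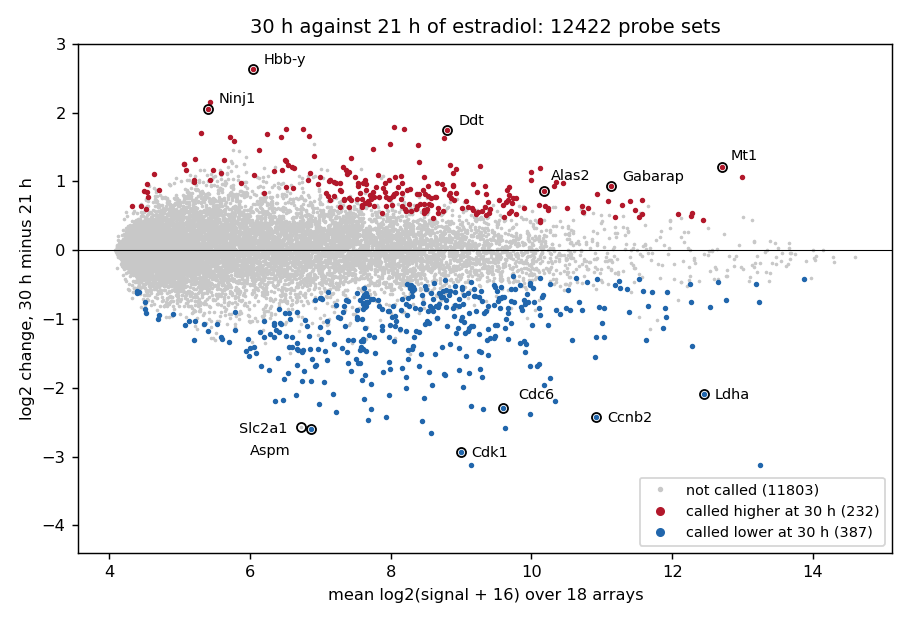
Each point is 1 of 12422 probe sets, with its mean log2 signal over 18 arrays across and its log2 change, 30 h minus 21 h, upward. Red points were called higher at 30 h (232), blue points lower (387) and grey points were not called, and the circled genes show that the falls reach beyond -2 while Hbb-y, at 2.63, is the top rise; Slc2a1 is circled but was not called.

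Genes of mitosis fell together. In 4 lists of mitosis genes, 70 genes were measured, of which 43 were called lower and 1 higher, against 3.9% and 2.24% of all genes. Their calls ranged between -3.13 and -0.59, and their median over all 70 was -1.04. In the 43 genes called lower, the 30 h arrays all lay below the 21 h arrays, and in 36 of them below every other array of the course. Of all 12422 probe sets, 580 had 30 h signals below every other array.

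The kinases and cyclins that start mitosis were lower in 15 of 19 members, with a median of -1.44. Cdk1, the kinase that drives entry into mitosis, had 13.5, 86.5 and 50.9 at 30 h, against 368.1, 431.7 and 481.9 at 21 h (-2.93, SE 0.30). Its partner cyclin B2 (Ccnb2) had 320, 651 and 744 at 30 h, against 2858, 3523 and 3642 at 21 h. Every 30 h array of Ccnb2 was thus far under every 21 h array, a change of -2.43 (SE 0.21, limma's adjusted p 7.43e-07). Aurora A (Aurka), which builds the spindle poles, had 27.0, 62.9 and 59.1 at 30 h, against 246.9, 388 and 333.6 at 21 h (-2.43, SE 0.23). Plk1, the polo kinase that acts through mitosis, had 149, 222 and 211 at 30 h, against 752, 723 and 846 at 21 h (-1.84, SE 0.14), although its probe set may also read related transcripts. Checkpoint genes that hold chromosomes until they are attached fell as well, Mad2l1 with a change of -1.96 and Ttk with -1.44, and Bub1 was called lower too. The 4 members not called were Wee1 (-0.74), Foxm1 (-0.59), Cdc25a (-0.35) and Melk (0.10), and the activator B-Myb (Mybl2) was called at -1.69.

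Spindle motors and cytokinesis genes were lower in 21 of 28 members, with a median of -1.31. Kif2c, a kinesin that takes apart microtubules at the centromere, had 27.1, 44.0 and 52.7 at 30 h, against 153.8, 189.6 and 243.8 at 21 h (-1.94, SE 0.21). Anillin (Anln), a scaffold of the cleavage ring, had 8.3, 36.1 and 37.6 at 30 h, against 119.9, 276 and 252.7 at 21 h (-2.47, SE 0.33). Survivin (Birc5), which belongs to the chromosomal passenger complex with Aurora B, had 67.4, 76.9 and 125.6 at 30 h, against 271, 589 and 606 at 21 h (-2.16, SE 0.26). Its partners Aurkb (-1.72), Cdca8 (-1.14) and Incenp (-0.84) were called too, although Incenp not without 21 h B, 21 h C, 30 h A or 30 h C (adjusted p up to 0.116). The general tubulins and motors of the list were not called, with values of 0.02 for Tubb4b, 0.06 for Ckap5 and 0.22 for Kif2a. Kifc1, a motor that draws spindle poles together, was called at -2.35, but not without array 21 h B (-2.10, adjusted p 0.0672) or 21 h C (-2.16, adjusted p 0.0583).

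Kinetochore genes split. Of 10 measured, Cenpa (the centromere histone, -1.51), Cenpk (-1.42), Sgo1 (-1.29) and Bub3 (-1.08) were lower, while Zwint, a kinetochore linker, was higher. Averaged over 2 probe sets each, Sgo1 changed by -0.51 and Bub3 by -0.69. Zwint had 4186, 4498 and 4284 at 30 h, against 2818, 3211 and 3045 at 21 h (0.48, SE 0.13, limma's adjusted p 0.033). Its probe set is of a kind that can read several transcripts, and its call ended when any 1 of 5 arrays (all but 30 h A) was left out, with adjusted p up to 0.127. Among 13 measured members of the anaphase-promoting complex and its partners, 3 were lower, namely Cdc20, Pttg1 (securin, -0.96) and Anapc5 (-0.59). Averaged over its 2 probe sets, Pttg1 changed by -0.32. Cdc20, the activator that sets off anaphase, had 253, 302 and 365 at 30 h, against 1235, 1653 and 1889 at 21 h (-2.19, SE 0.16, limma's adjusted p 8.98e-08). The other 10 were not called, with values between -0.96 for Ube2c and 0.31 for Anapc13.

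**Figure D2:**
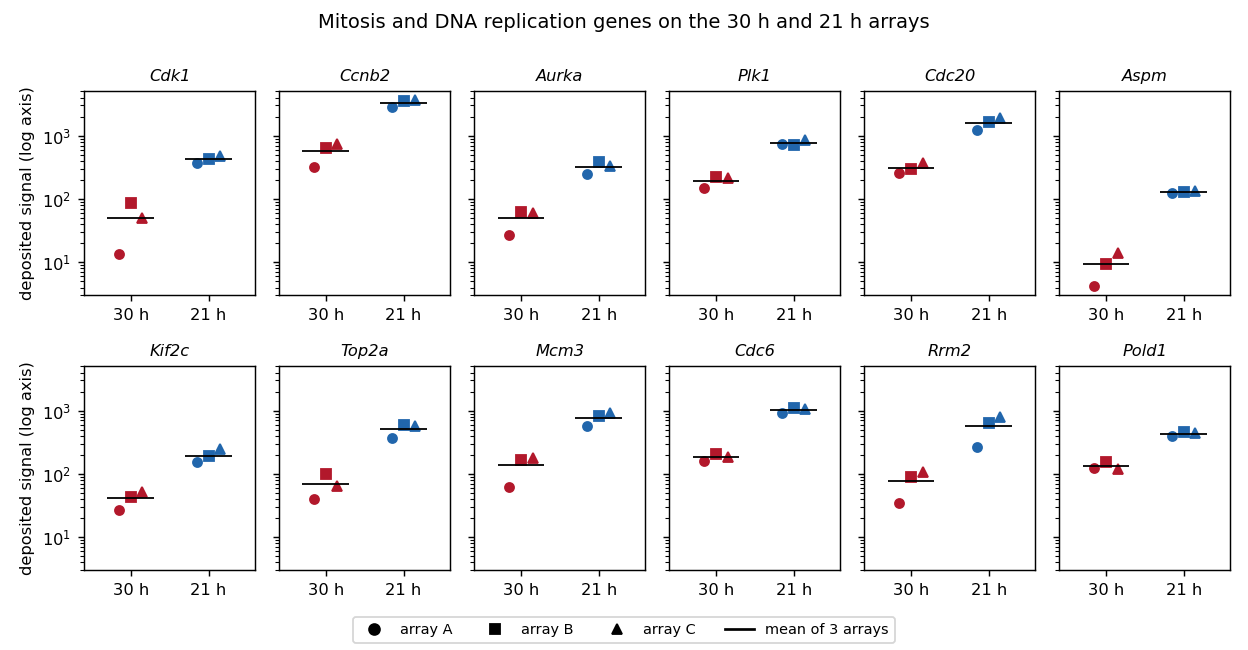
Deposited signal (log axis) of 12 mitosis and DNA replication genes on the 3 arrays at 30 h (red, left) and the 3 at 21 h (blue, right), with symbols for arrays A, B and C and lines for the means. In each of the 12 genes the 30 h arrays lie below the 21 h arrays, and Aspm has 4.2 to 14.2 at 30 h against 126.1 to 135.5 at 21 h.

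The promoters of 3 mitosis genes are shown as examples of windows that hold TTTGAA and CCAAT. The windows run from 250 bases before to 50 after the first listed start of each gene (RefSeq, GRCm38.p6), that of Cdk1 at chr10:69352863-69353162, minus strand, that of Ccnb2 at chr9:70421505-70421804, minus strand, and that of Cdc20 at chr4:118437294-118437593, minus strand. Capitals mark TTTGAA and CCAAT on either strand (reversed, TTCAAA and ATTGG).
Cdk1: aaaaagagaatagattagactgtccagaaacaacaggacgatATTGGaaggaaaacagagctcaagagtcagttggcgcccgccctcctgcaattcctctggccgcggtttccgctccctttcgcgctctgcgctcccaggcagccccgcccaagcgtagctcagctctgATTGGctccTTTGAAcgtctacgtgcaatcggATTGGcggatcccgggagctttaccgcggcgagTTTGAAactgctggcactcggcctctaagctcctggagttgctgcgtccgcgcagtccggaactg
Ccnb2: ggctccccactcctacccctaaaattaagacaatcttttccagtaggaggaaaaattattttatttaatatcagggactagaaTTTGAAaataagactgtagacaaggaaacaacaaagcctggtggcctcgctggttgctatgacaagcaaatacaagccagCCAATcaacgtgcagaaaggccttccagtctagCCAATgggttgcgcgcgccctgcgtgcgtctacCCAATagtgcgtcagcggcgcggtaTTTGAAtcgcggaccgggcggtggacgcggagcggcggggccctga
Cdc20: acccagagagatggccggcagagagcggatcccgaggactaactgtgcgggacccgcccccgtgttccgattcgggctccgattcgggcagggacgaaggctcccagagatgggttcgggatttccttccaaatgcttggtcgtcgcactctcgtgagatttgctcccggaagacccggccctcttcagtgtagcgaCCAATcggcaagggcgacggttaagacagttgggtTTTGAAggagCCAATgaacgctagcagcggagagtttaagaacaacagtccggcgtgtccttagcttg
TTTGAA begins 15 bases before the start in Cdk1, 18 bases before it in Cdc20 and at base 5 of the transcript in Ccnb2, each with CCAAT upstream. Of the 43 mitosis genes called lower, 37 had a promoter in the table, and 24 of these held TTTGAA (64.9%), against 853 of the 6572 genes on the array with a promoter (13.0%). CCAAT was in 29 of the 37 (78.4%), against 38.3% of the genes on the array. In all 60 mitosis genes with a promoter, called or not, the shares were 48.3% and 63.3%. Of all 322 genes called lower, 275 had a promoter, with TTTGAA in 70 (25.5%) and CCAAT in 154 (56%). Over all 27025 promoters of the table, TTTGAA was in 18.1% and CCAAT in 37.9%.

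Genes of DNA replication were called lower in 24 of 41 measured members and higher in none, with a median of -0.99. Several genes that load the helicase at origins fell. Cdc6, which loads the helicase, had 160, 207 and 188 at 30 h, against 908, 1106 and 1079 at 21 h. No array came near the other time, and the change was -2.29 (SE 0.11, limma's adjusted p 5.54e-10). Cdt1, its partner in loading, changed by -1.78, and of the helicase subunits Mcm2 changed by -1.35, Mcm3 by -2.38, Mcm4 by -1.99, Mcm5 by -1.55 and Mcm7 by -1.36. Averaged over its 2 probe sets, Mcm5 changed by -0.50. Mcm6 was dim, with 3.9, 14.5 and 16.3 at 30 h and 13.3, 4.9 and 10.7 at 21 h, and was not called. Pold1, the catalytic subunit of polymerase delta, had 123, 156 and 120.3 at 30 h, against 393, 453 and 436 at 21 h (-1.54, SE 0.13). Averaged over its 2 probe sets, 1 of them called, Pold1 changed by -0.88. The clamp Pcna had 113, 151 and 142 at 30 h, against 150.1, 471 and 434 at 21 h (-1.08, SE 0.28). For Pcna, array 21 h A was thus just below the highest 30 h array, and the times overlapped. Its call ended without 21 h B, 21 h C, 30 h A or 30 h C (adjusted p up to 0.164). Origin recognition subunits mostly missed the threshold, at -0.74 for Orc1, 0.40 for Orc2, -0.11 for Orc4 and 0.08 for Orc5, whereas Orc6 was called at -1.28. Without array 21 h B, 16 of the 41 were called, and the counts with other arrays left out ran between 17 and 26. With the 30 h and 21 h arrays fitted alone, which leaves fewer arrays to estimate the spread, 12 were called.

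Promoters of replication genes are shown for Mcm3 (chr1:20820263-20820562, minus strand) and Cdc6 (chr11:98907901-98908200, plus strand), in the same build, with the E2F motifs TTCCCGC and TTGGCGC in capitals on either strand (reversed, GCGGGAA and GCGCCAA).
Mcm3: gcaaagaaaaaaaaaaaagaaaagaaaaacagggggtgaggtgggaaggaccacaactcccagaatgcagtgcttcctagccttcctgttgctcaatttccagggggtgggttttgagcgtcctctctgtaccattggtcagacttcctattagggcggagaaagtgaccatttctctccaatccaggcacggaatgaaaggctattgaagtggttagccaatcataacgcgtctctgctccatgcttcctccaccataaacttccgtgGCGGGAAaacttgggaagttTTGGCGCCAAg
Cdc6: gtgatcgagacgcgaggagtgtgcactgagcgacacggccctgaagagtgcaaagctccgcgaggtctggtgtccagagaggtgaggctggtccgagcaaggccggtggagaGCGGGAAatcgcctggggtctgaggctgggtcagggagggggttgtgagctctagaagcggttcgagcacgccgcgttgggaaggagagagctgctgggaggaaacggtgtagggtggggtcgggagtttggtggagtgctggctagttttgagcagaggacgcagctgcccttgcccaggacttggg
In Mcm3 the motif TTGGCGC, found from base 40 of the transcript, overlaps its copy on the opposite strand, found from base 43. Of 20 replication genes called lower with a promoter, 11 held an E2F motif (55%) and 4 held TTTGAA (20%). Of the 37 mitosis genes, 2 held an E2F motif (5.41%), and of the genes on the array 11.2% did. The Cdk1 window printed above holds TTGGCGC 178 bases before the start, not marked there. Over all measured members with a promoter, called or not, 19 of 36 replication genes (52.8%) and 7 of 60 mitosis genes (11.7%) held one. CCAAT, also present in the Mcm3 window and not marked there, was in 12 of the 20 replication genes called lower (60%) and in 58.3% of all measured, against the 63.3% of all measured mitosis genes. These counts are descriptions of letters in a window of fixed length, with no test.

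Enzymes that make deoxynucleotides were lower in 6 of 16 members. Rrm2, the subunit of ribonucleotide reductase made in S phase, had 35.3, 89.9 and 108.8 at 30 h, against 270.5, 649.6 and 796 at 21 h (-2.59, SE 0.33), and thymidine kinase (Tk1) had 117, 142 and 118 at 30 h, against 482, 596 and 352 at 21 h (-1.73, SE 0.22). Rrm1 (-1.86), Dck (-1.15), Mthfd2 (-0.87) and Gart (-0.81) were the others called. Averaged over 2 probe sets each, the change was -1.24 for Tk1, -0.93 for Rrm1, -0.66 for Dck and -0.07 for Mthfd2. Genes that condense and pack chromosomes were lower in 9 of 17, among them the condensin subunits Smc2 (-2.01), Smc4 (-1.28) and Ncaph (-1.90), the proliferation antigen Mki67 (-2.27) and the chromatin proteins Hmgb2 (-1.44) and Hmgb3 (-1.26). The second probe set of Mki67 was dim and moved by -0.01. Of 9 histone genes with a probe set of their own, H2ax alone was called (-1.22). Lamin A (Lmna), of the nuclear lamina, was the 1 member called higher, with 7558, 7462 and 6762 at 30 h, against 3988, 5643 and 6001 at 21 h (0.53, SE 0.15). Its call ended without 21 h A, 30 h A, 30 h B or 30 h C (adjusted p up to 0.19), and with the arrays brought to a common median in place of quantile normalization.

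DNA repair genes were lower in 6 of 26 members, with Brca2 (-1.46), Rad51ap1 (-1.42) and Brca1 (-1.01) among them. Without 21 h B or without 30 h A the count was 3, and the calls of Msh3, Pms2 and Parp1 ended in 3, 4 and 5 of the 6 fits that left out an array. E2f8, a repressor of the E2F family, was lower at -1.66, as were Rbl1 (-1.19) and Tfdp1 (-0.91), with 3 of 8 called, or 1 without 21 h B. Averaged over its 3 probe sets, 1 of them called, Tfdp1 changed by -0.73. By contrast, none of 9 G1 cyclins and kinases was called, and their median was -0.03. Cyclin D3 (Ccnd3), a partner of Cdk4 and Cdk6, had 2518, 2248 and 2085 at 30 h, against 2357, 2432 and 2220.0 at 21 h, and the ranges overlapped. Cdk4 (-0.13), Cdk2 (-0.19) and Ccne1 (-0.03) were likewise not called.

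Of 8 cell cycle inhibitors, p21 (Cdkn1a) was higher, with 3801, 2997 and 2145 at 30 h, against 1242, 1655 and 1342 at 21 h. The times did not overlap, with a change of 0.98 (SE 0.27, limma's adjusted p 0.0444), but the call ended when any 1 of 5 arrays (all but 30 h C) was left out, with adjusted p up to 0.188. Cdkn2d (-0.71) and Cdkn3, a phosphatase that acts on Cdk proteins (-1.90), were lower. The Kip family member p27 (Cdkn1b) was not called. Among 11 antiproliferative genes Phlda3 alone was called by its brightest probe set, with 780.0, 859 and 765 at 30 h, against 491, 492 and 503 at 21 h (0.66, SE 0.14). The dimmer of 2 probe sets of Tob1 was called lower, while its brightest was not called (0.33).

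Array A stood low in cell cycle genes at both times. Of the 43 mitosis genes called lower, 34 were lowest on array A among the 30 h arrays, and 34 were lowest on array A among the 21 h arrays. Of the 24 replication genes called lower, the counts were 18 at 30 h and 23 at 21 h. With both A arrays left out, a check chosen after seeing the data, 14 of 19 kinases and cyclins, 19 of 28 spindle and cytokinesis genes and 24 of 41 replication genes were called lower.

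Over the whole course the list means of replication and mitosis genes differed most at 21 h, a difference that was not tested. The mean log2 signal of the 70 mitosis genes on the 21 h arrays was -0.07, 0.22 and 0.23 relative to 0 h, within the range of earlier arrays or just under it, and -1.20, -0.84 and -0.86 on the 30 h arrays. The 41 replication genes were already at -1.04, -0.60 and -0.53 on the 21 h arrays, and at -1.85, -1.51 and -1.64 on the 30 h arrays. Cdc6 averaged 494, 864, 1300, 1667, 1031 and 185 at 0, 3, 7, 14, 21 and 30 h. Ccnb2 averaged 1723, 1883, 2347, 3508, 3341 and 572 at the same times.

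**Figure D3:**
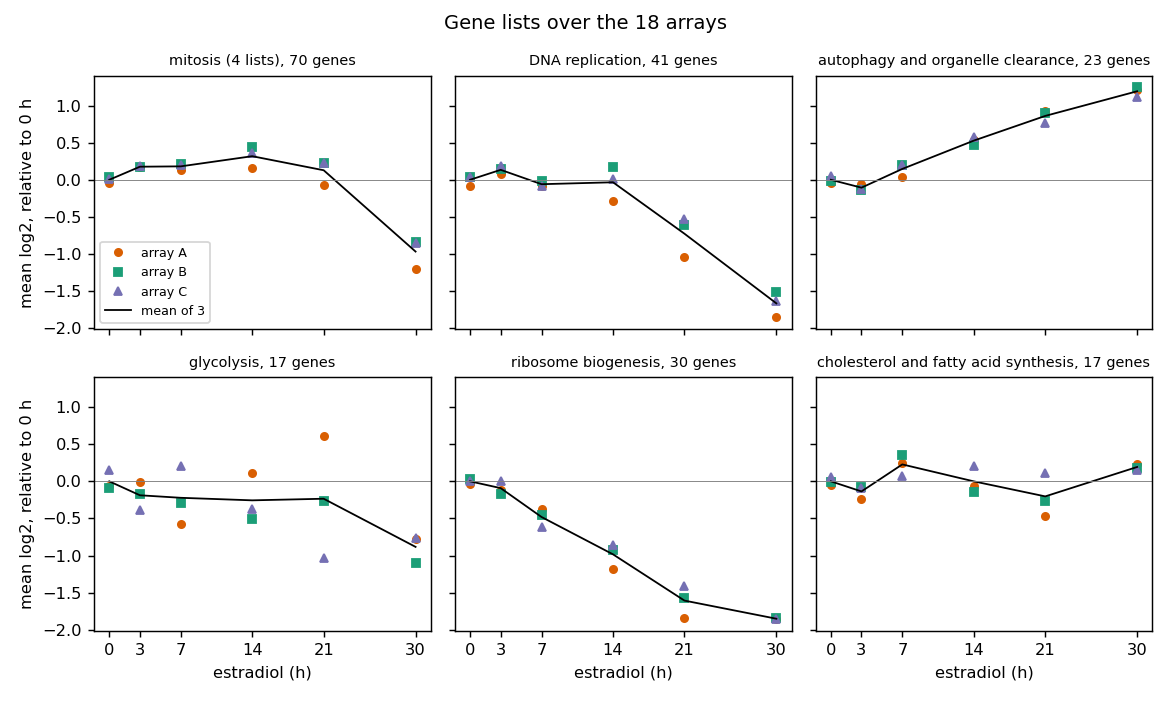
Mean log2 signal of 6 gene lists on each of the 18 arrays, relative to the 0 h mean, against hours of estradiol, with symbols for arrays A, B and C and lines for the means of 3. Mitosis genes are near their 0 h level at 21 h and at -1.20 to -0.84 at 30 h, autophagy and organelle clearance genes are highest at 30 h, and the 21 h arrays of the glycolysis list spread between -1.04 and 0.61.

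Outside the cell cycle each list had a smaller share of calls than DNA replication (58.5% lower) or the 4 mitosis lists together (61.4% lower). The highest was 26.1%, for lysosome and autophagy genes. Of all genes, 2.24% were called higher and 3.9% lower, and list counts near these shares are descriptions only. The plot of list members sets the lists side by side.

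**Figure D4:**
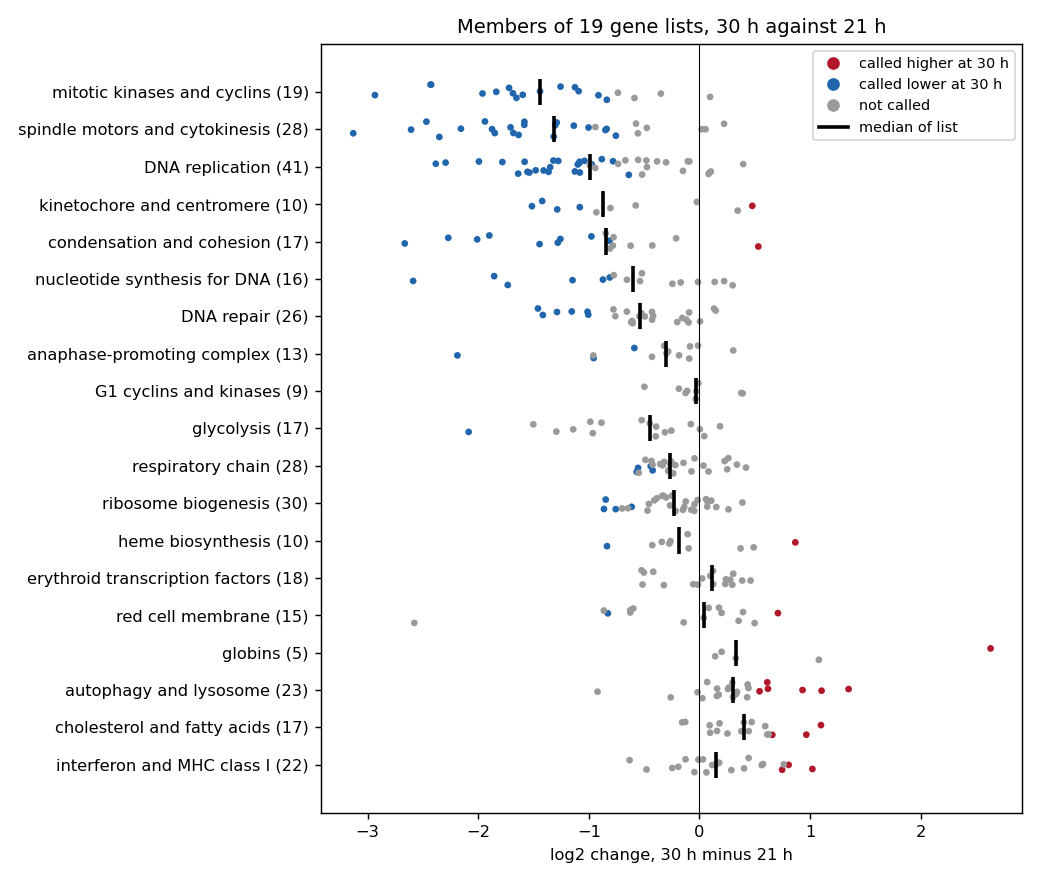
Each point is 1 gene of 19 lists, placed by its log2 change, 30 h minus 21 h, red if called higher, blue if called lower and grey if not called, with the list's median as a black bar and the number of measured genes in brackets. The 3 lists at the top have medians of -1.44, -1.31 and -0.99, and the autophagy and lysosome list has 6 calls, all higher.

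Of 5 globin genes measured, 1 was called, the embryonic Hbb-y, while the adult Hba-a1 and Hbb-b2 were high and not called. The embryonic beta-like globin Hbb-y had 301, 427 and 323 at 30 h, against 22.2, 60.9 and 60.3 at 21 h (2.63, SE 0.41, limma's adjusted p 5.57e-04). Its second probe set had 129, 173 and 131 at 30 h, against 6.1, 28.8 and 32.6 at 21 h (2.15, SE 0.34), and was also called. The brighter set may read other beta-like globins, whose adult member Hbb-b2 had 11958, 9990 and 10763 at 30 h, against 8359, 9393 and 8539 at 21 h, without a call (0.33, SE 0.18). The embryonic alpha-like globin Hba-x had 208, 221 and 270 at 30 h, against 63.4, 142 and 131 at 21 h, and just missed (1.08, SE 0.32, limma's adjusted p 0.0619). Hbb-bh1, also embryonic, overlapped (0.20). The promoter of Hbb-y (chr7:103853158-103853457, minus strand) is shown with the globin boxes CACCC, read by Klf factors, and CCAAT in capitals on either strand.
Hbb-y: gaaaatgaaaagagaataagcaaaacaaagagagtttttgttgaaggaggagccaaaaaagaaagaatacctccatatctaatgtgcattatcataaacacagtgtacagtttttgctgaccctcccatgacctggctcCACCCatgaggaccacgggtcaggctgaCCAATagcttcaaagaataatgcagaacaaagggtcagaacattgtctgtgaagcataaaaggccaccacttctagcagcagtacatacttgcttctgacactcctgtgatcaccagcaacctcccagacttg
CACCC lies 111 bases and CCAAT 83 bases before the start. The window also holds TTTGAA on the opposite strand, 75 bases before the start and not marked there. The pair TTTGAA and CCAAT was thus present in the gene with the largest rise too. CACCC is common and was in 63.4% of the genes on the array with a promoter.

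In the heme pathway 1 gene rose and 1 fell among 10. Alas2, the first and limiting enzyme in erythroid cells, had 11810, 12316 and 13301 at 30 h, against 7116, 7005 and 7430 at 21 h (0.87, SE 0.22, limma's adjusted p 0.029). The arrays were clearly apart, but the call ended when any 1 of 5 arrays (all but 30 h A) was left out, with adjusted p up to 0.106. Uros, a middle enzyme of the pathway, had 428, 538 and 435 at 30 h, against 840, 895 and 920 at 21 h (-0.84, SE 0.14). Of 15 membrane genes, the scaffold Mpp1 was higher (0.71) and the Rh-associated glycoprotein Rhag lower (-0.83), while band 3 (Slc4a1) overlapped at 2705, 4037 and 4213 at 30 h, against 1348, 3586 and 2985 at 21 h. Of 11 iron genes only transferrin receptor 2 (Tfr2) was called, at -0.61, and none of 18 erythroid transcription factors was. Gata1 had 480, 605 and 418 at 30 h, against 341, 428 and 470 at 21 h. Whether its probe set reads the Gata-1-ER fusion or the disrupted gene was not tested. Zfpm1, a cofactor of Gata-1, had 7460, 7280.0 and 7405 at 30 h, against 6795, 6261 and 7545 at 21 h. Of 19 red cell enzymes and antioxidants, the metallothioneins Mt1 and Mt2 and the lipid peroxidase Gpx4 (0.61) were higher. Carbonic anhydrase 1 (Car1) was lower at -1.68, with 85.6, 46.2 and 60.8 at 30 h, against 204.5, 190.1 and 336.0 at 21 h.

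Lysosome and autophagy genes were higher in 6 of 23 members and lower in none, and 20 of the 23 had a change above 0, as did 52% of all genes, with a median of 0.30. With a common median, 3 were called, and with single arrays left out 4 to 6. Cathepsin A (Ctsa), a lysosomal carboxypeptidase, had 750, 852 and 702 at 30 h, against 292, 280 and 265 at 21 h (1.35, SE 0.18, limma's adjusted p 1.07e-04). Gabarap, which coats autophagosomes and binds cargo receptors, had 7362, 7484 and 7208 at 30 h, against 4053, 4081 and 4375 at 21 h (0.93, SE 0.13). The lysosomal membrane protein Lamp1 had 9735, 9331 and 10103 at 30 h, against 6754, 6859 and 7249 at 21 h (0.54, SE 0.11). In these 3 genes the arrays of each time lay close together and well apart from the other time. Cathepsins B and D (Ctsb 0.62, Ctsd 0.61) were called as well, and Ctsl was called on a dim signal of 48.9, 32.0 and 10.3 at 30 h, against 3.8, 6.7 and 2.0 at 21 h. The calls of Ctsb, Ctsd and Ctsl ended in 2, 2 and 4 of the 6 fits that left out an array, with adjusted p up to 0.0772, 0.0961 and 0.13. Ctsd was also the single call among 10 estrogen receptor targets. Relatives that were not called had values of 0.44 for Gabarapl1, 0.43 for Map1lc3b and 0.34 for Sqstm1.

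Ubiquitin enzymes of late erythroid cells were higher in 2 of 15, Ube2o, which tags ribosomal proteins for removal in reticulocytes (0.93), and Ube2b (0.73). Ube2o had 501, 555 and 637 at 30 h, against 370, 249 and 248 at 21 h. Averaged over its 3 probe sets, 1 of them called, Ube2o changed by 0.66. The survival gene Bcl2l1, which keeps late erythroblasts alive, had 1130, 1515 and 1469 at 30 h, against 791, 791 and 683 at 21 h (0.75, SE 0.19), and was the single call among 20 apoptosis regulators. Its call ended when any 1 of 4 arrays (21 h B, 21 h C, 30 h B or 30 h C) was left out, with adjusted p up to 0.103.

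Among all genes, the 20 largest rises were led by Hbb-y and mixed genes of many kinds. Ddt, a tautomerase related to the cytokine Mif, had 3327, 3099 and 2970 at 30 h, against 875, 964 and 797 at 21 h. The spread within each time was small beside the change of 1.75 (SE 0.15, limma's adjusted p 8.77e-07). Ddt averaged 175, 202, 212, 344, 879 and 3132 over the 6 times, and was already higher at 21 h than at 0 h (2.26, limma's adjusted p 2.38e-09). The membrane protein Tmem150a had 612, 439 and 641 at 30 h, against 136, 133 and 188 at 21 h (1.77, SE 0.28). P2rx4, an ATP-gated ion channel, had 193, 224 and 181 at 30 h, against 53.3, 53.6 and 50.5 at 21 h (1.69, SE 0.25), and Slc25a44, a mitochondrial carrier of branched-chain amino acids, had 661, 751 and 639 at 30 h, against 208, 164 and 336 at 21 h (1.48, SE 0.28).

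Other large rises came from a low point at 21 h. In 11 of the 20 genes the mean at 21 h was the lowest of the 6 times, a shape that choosing genes by a large rise over 21 h itself favours. The serpin Serpina3n averaged 80.8, 85.3, 94.6, 64.4, 33.4 and 149 at 0, 3, 7, 14, 21 and 30 h (1.77, SE 0.35). Snrp1c-ps2, annotated as a pseudogene, averaged 383, 247, 278, 373, 84.8 and 330.4 at these times (1.79, SE 0.31), so that its mean at 30 h was below that at 0 h. Myt1l, a zinc finger gene of neurons, averaged 77.1, 95.8, 94.1, 62.7, 29.0 and 120 (1.64, SE 0.35), but its other probe sets moved by 0.39 and -0.16 without a call. Lyst, Gpr27, Cpne3, Asprv1, Kars and Tesk1 had the same shape with changes of 1.30 to 1.59, and each lost its call in 3 to 5 of the 6 fits that left out an array. The highest adjusted p in those fits was 0.0984 for Cpne3 and 0.185 for Tesk1.

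**Figure D5:**
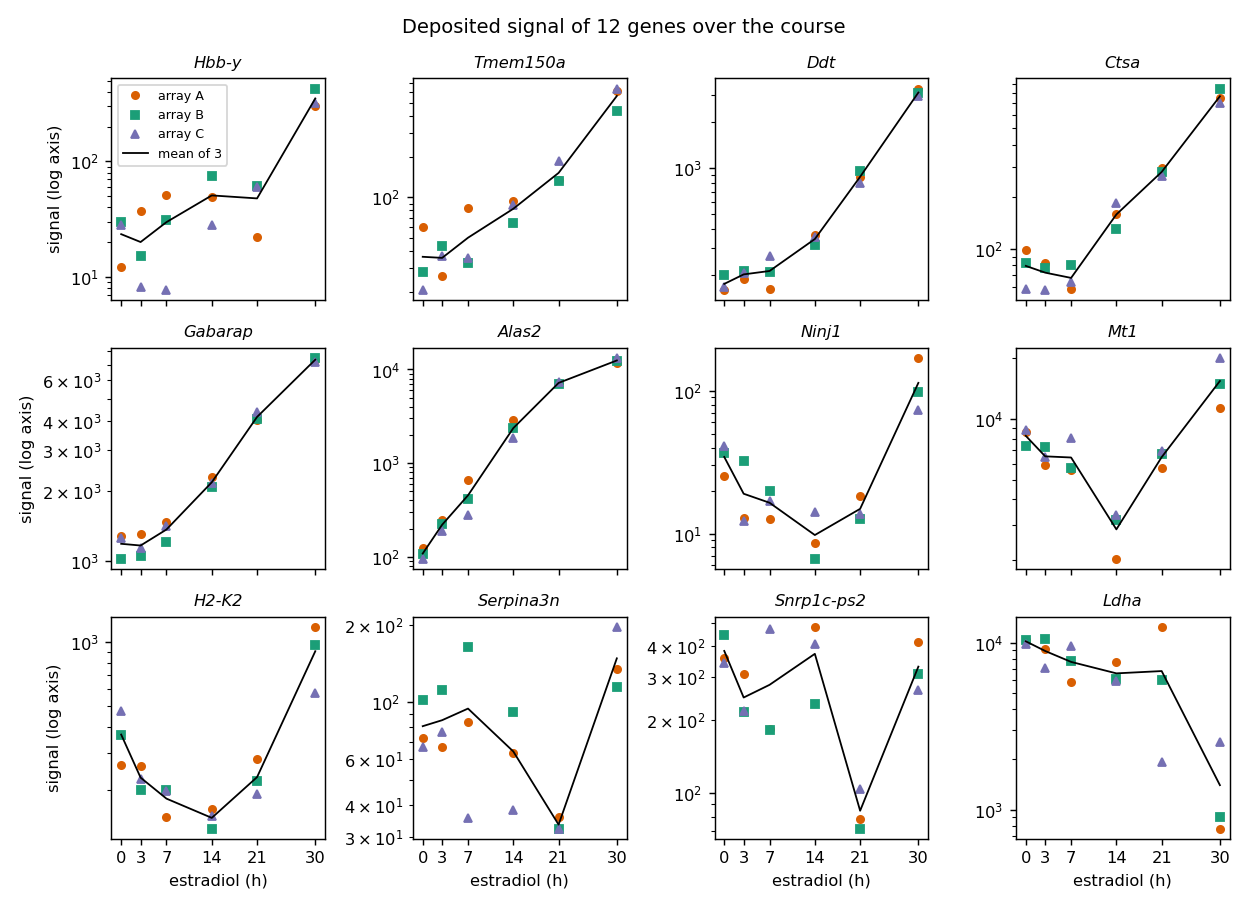
Deposited signal (log axis, scale set for each gene) of 12 genes on the 18 arrays against hours of estradiol, with symbols for arrays A, B and C and lines for the means of 3. Ddt, Ctsa, Gabarap and Alas2 climb through the course, Ninj1, Mt1 and H2-K2 are lowest on average at 14 h, Serpina3n and Snrp1c-ps2 are lowest at 21 h, and the 21 h arrays of Ldha run between 1929 and 12388.

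A further group turned round during the course. The comparison of 14 h with 0 h shares no array with 30 h against 21 h, and called 814 probe sets higher (6.55%) and 841 lower (6.77%). Of the 232 probe sets higher at 30 h, 66 (28.4%) had also been higher at 14 h, 26 (11.2%) had been lower and 140 (60.3%) had not been called. They made up 8.11% of those higher and 3.09% of those lower at 14 h. Of the 387 lower at 30 h, 48 (12.4%) had been higher at 14 h, 76 (19.6%) had been lower and 263 (68.0%) had not been called, and they made up 5.90% and 9.04% of the 14 h calls. The metallothioneins, small proteins that bind zinc and copper, were the brightest of those that turned upward. Mt1 had 11380, 14844 and 20120 at 30 h, against 5748, 6704 and 6978 at 21 h (1.21, SE 0.20, limma's adjusted p 8.57e-04). Its means were 8258, 6535, 6450.1, 2839, 6477 and 15448 at the 6 times. Mt2 had 11482, 18216 and 21705 at 30 h, against 5967, 9331 and 8090.1 at 21 h (1.06, SE 0.22), with a mean of 2586 at 14 h and 11534 at 0 h.

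Ninj1, a membrane protein that clusters when cells rupture, had 169.7, 97.7 and 72.9 at 30 h, against 18.4, 12.6 and 13.7 at 21 h (2.06, SE 0.29), after a mean of 34.4 at 0 h and 9.8 at 14 h. The class I gene H2-K2 had 1179, 968 and 579 at 30 h, against 280.4, 220.5 and 193 at 21 h (1.76, SE 0.22), and its probe set may read other class I genes. Of 22 interferon and class I genes, 3 were higher, namely beta 2 microglobulin (B2m), the shared light chain of class I proteins, with 2833, 2450.1 and 2479 at 30 h, against 1333, 1069.7 and 1175 at 21 h (1.02, SE 0.22), H2-D1 (0.81) and H2-K1 (0.75). The interferon-induced Isg15 was near background in all, with 15.7, 9.9 and 10.7 at 30 h, against 18.5, 7.8 and 11.2 at 21 h.

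Among genes that had been higher at 14 h and were lower at 30 h, Noct, a circadian phosphatase, had 338, 364 and 313 at 30 h, against 1081, 1052 and 1067 at 21 h (-1.52, SE 0.16), and averaged 355 at 0 h and 1222 at 14 h. The platelet glycoprotein Gp9 averaged 25.1 at 30 h and 99.3 at 21 h (-1.54, SE 0.26), and 30.8 at 0 h and 118 at 14 h. Nusap1, a spindle microtubule protein, Cenpa and Cdc6 were in the same group. So was Cdkn3, with 31.8, 100.7 and 110.8 at 30 h, against 124.7, 535.4 and 483.3 at 21 h, a call that ended without 21 h B, 21 h C or 30 h A (adjusted p up to 0.14).

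Glycolysis genes gave 1 call among 17 (5.88% lower, beside 3.9% of all genes), with a median of -0.45. Their 21 h arrays lay far apart. Lactate dehydrogenase A (Ldha) had 769, 906 and 2532 at 30 h, against 12388, 5981 and 1929 at 21 h, so the array 21 h C lay below 30 h C. The change was -2.09 (SE 0.46, limma's adjusted p 0.00991), and the call ended without 21 h B, 30 h A or 30 h B (adjusted p up to 0.0607). The glucose transporter Slc2a1 had 11.3, 9.1 and 46.8 at 30 h, against 504.1, 158.4 and 68.0 at 21 h, and was not called (-2.58, SE 0.79, limma's adjusted p 0.0733). Pdk1, which holds pyruvate out of the mitochondria's cycle, had 121.5, 79.7 and 107.5 at 30 h, against 897.9, 294.1 and 115.3 at 21 h (-1.50, adjusted p 0.0716). The order A, B, C from high to low on the 21 h arrays also held for Hk2, Pgam1, Pkm and Aldoa, and for the mitophagy gene Bnip3 (543, 328 and 71.5). Without array 21 h C, 5 of the 17 were called lower, and without 21 h B or 30 h B none was. Array 21 h A had the lowest quality weight of the 6 in limma (0.57), and its part in the glycolysis values was not tested.

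Sterol and fatty acid synthesis genes were higher in 3 of 17, and 15 of the 17 had a change above 0, beside 52% of all genes. Fdft1, which makes squalene, had 1705, 1902 and 1375 at 30 h, against 562, 801 and 1042 at 21 h (0.97, SE 0.19), and Hmgcs1, an early step of the same pathway, had 378, 396 and 270.3 at 30 h, against 115, 150 and 216 at 21 h (1.10, SE 0.22). Here array C was lowest at 30 h and highest at 21 h in both genes. The third call was Scd2 (0.66), a desaturase. The median of the list was 0.40, or 0.20 with all probe sets of each gene averaged.

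Signalling genes gave single calls. Of 23 immediate early and AP-1 genes 1 was higher (4.35%), and of 21 cytokine receptor and Stat5 genes 1 (4.76%). The share of all genes called higher was 2.24%. Jund, an AP-1 factor, had 3715, 3293 and 3783 at 30 h, against 2156, 1101 and 1494 at 21 h (1.20, SE 0.33), and Socs1, a brake on cytokine receptors, had 182, 198 and 178 at 30 h, against 97.8, 87.8 and 42.3 at 21 h (1.21, SE 0.33). The calls of both ended when any 1 of 5 arrays (all but 21 h A) was left out, with adjusted p up to 0.194 and 0.19. Ornithine decarboxylase (Odc1), which starts polyamine synthesis, was lower at -0.81 and was the single call among 12 genes of the Myc network and polyamines.

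Ribosome biogenesis genes were already low at 21 h. Their mean log2 signal relative to 0 h was -1.86, -1.84 and -1.86 on the 30 h arrays and -1.85, -1.57 and -1.41 on the 21 h arrays, and 4 of 30 were called lower, namely Nop56 (-0.86), Ebna1bp2 (-0.85), Gar1 (-0.76) and Npm1 (-0.61), or 2 without 21 h C. Averaged over 2 probe sets each, Nop56 changed by -0.67 and Gar1 by -0.08. Of 28 respiratory chain genes 4 were lower by 0.42 to 0.57 on the log2 scale (Uqcrc1, Ndufb5, Ndufv1 and Cyc1), and with single arrays left out 0 to 2 were called. Of 33 proteasome genes Psmc1 was lower (-0.53), a share of 3.03% beside 3.9% of all genes. Of 23 heat shock genes the endoplasmic reticulum chaperones Hspa5 (-0.82) and Hsp90b1 (-0.74) were lower (8.70%). Among 16 stem and progenitor regulators only Lyl1 was called (-0.63), at signals of 65.4, 59.3 and 52.6 at 30 h, against 134.2, 95.6 and 73.9 at 21 h.

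Several further calls named above ended when single arrays were left out. Sgo1, Brca1 and Hspa5 lost theirs in 1 of the 6 fits, with adjusted p up to 0.0676, and Rbl1 in 2 (0.0866). Anapc5, Gart, Tfdp1, Ebna1bp2, Npm1, H2-D1 and Scd2 lost theirs in 3, with adjusted p up to 0.211 for Scd2. Cdkn2d, Gar1, Psmc1, Tfr2 and Gpx4 lost theirs in 4, and Ube2b and Lyl1 in 5, with adjusted p up to 0.189 for Lyl1.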

How the data were processed

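The deposited values are signal intensities of Affymetrix MG-U74Av2 arrays, 1 column per array, on a linear scale; per the labels, RNA was sampled from 3 biological replicates at each time. The algorithm behind them is not given in the sources used here, and detection calls were not used here. Each array had the same 2% trimmed mean, so the authors' values were already scaled. From them, log2(value + 16) was taken, quantile normalized and fitted with limma 3.58.1 in R 4.3.3 (lmFit, and eBayes with an intensity trend) with 1 mean per time over all 18 arrays and 12 residual degrees of freedom. The contrast was 30 h minus 21 h, two-sided, with Benjamini-Hochberg adjustment over 12422 probe sets (66 control probe sets of 12488 left out) and calls at an adjusted p below 0.05. No probe set was filtered on signal. An exact permutation test of 3 arrays against 3 cannot go below 0.1, so the calls rest on the spread shared across probe sets. The script was tested on simulated data.

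Probe sets were named from the platform annotation (10833 with 1 symbol, 396 with several, 1193 with none), and 10817 of the named ones were found in the RefSeq table. A gene is its brightest probe set with 1 symbol, and 2808 probe sets have a suffix that marks possible reading of several transcripts. Genes named are the 20 largest rises and falls among called genes whose times do not overlap, up to 6 members of each list by p, up to 6 late and turned genes of each kind, and further list members by role. The members, 40 gene lists and motifs were chosen with earlier results of these data known. Lists are given by counts and medians, with no test. The alternatives were other normalizations, constants and filters, array weights, a replicate block, the 2 times alone, and each array left out.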

Additional observations from a re-analysis of the deposited data

How the results depend on the processing

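Among the named genes and list members, no called gene reversed its direction under the alternatives run. Called genes outside these were not checked for it. Some genes that were not called and some list medians near 0 changed sign. The median of the immediate early genes was 0.21, and -0.07 without 21 h B, and that of the cell cycle inhibitors was 0.03, and -0.19 without 21 h C. Against 619 called probe sets (232 higher, 387 lower), a common median in place of quantile normalization gave 451, with 148 higher. The 6 arrays alone gave 290 (130 higher, 160 lower), and with a replicate block, chosen after seeing the data, 340 (149 higher, 191 lower); these fits have fewer arrays to estimate the spread. Leaving out each array in turn gave 402 to 574 calls, 144 to 185 higher and 243 to 389 lower; the count was 402 (243 lower) without 21 h B, 412 (148 higher) without 30 h C, and 144 were higher without 30 h A. Leaving out both A arrays, chosen after seeing the data, gave 437, with 129 higher. In the 18-array fit, a replicate block gave 676 calls (254 higher, 422 lower). The labels do not say whether a letter marks a shared culture or day. Over all probe sets, deviations of the same letter at 30 h and 21 h correlated at 0.06 (A), 0.09 (B) and 0.01 (C), and C at 30 h correlated best with A at 21 h, so the letters were not used as pairs, although array A was low in cell cycle genes at both times. No further normalization (632), constants of 1 (631) and 64 (584), the dimmest probe sets left out (701), no intensity trend (498), array weights (658) and uncertain probe sets left out (532) stayed within 1.5 times. Of the 20 largest falls, 19 were called in all 6 fits that left out an array, and of the 20 largest rises, 13. Dim signals limit what can be read: 7943 of 12422 probe sets averaged below 100 at both times.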

Other observations

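Among the brightest probe sets of the array, a set annotated to several genes had 1558, 1199.6 and 1774 at 30 h, against 10664, 13147 and 14234 at 21 h. All 3 arrays at 30 h lay below the 15 earlier ones, which ran between 10070.0 and 23066, and the change was -3.12 (SE 0.20, limma's adjusted p 2.46e-08). It was chosen after its values were seen. Its annotation lists several genes, and its suffix marks a set that can read a family of transcripts, so it entered no gene count or list above.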
